A study of Sus scrofa with 4 samples.

Results

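Chemokines, interleukins and their receptors were followed through 4 single-cell RNA sequencing libraries of the pig pancreas. Members were the genes whose name in the feature tables has the form of a chemokine ligand (CCL, CXCL), a chemokine receptor (CCR, CXCR, ACKR), an interleukin or an interleukin receptor, and they came to 103 of 30282 genes. They comprised 23 chemokine ligands, 17 chemokine receptors, 33 interleukins and 30 interleukin receptor genes, and each had at least 1 UMI in the deposited tables. UMIs, the barcodes of single RNA molecules, were counted once each whatever their number of reads. Levels below are UMIs of a gene per 1000000 UMIs of the same group of cells in the same library (CPM), which are not divided by gene length, so they are compared between cells and not between genes. A CPM is a share, so a gene that takes many of the UMIs of a group lowers the CPM of all others there.

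The libraries PPDO 1 and PPDO 2 held porcine pancreatic ductal organoids, and the libraries primary 1 and primary 2 held cells of porcine pancreas. The pigs were of German landrace background, per the study's methods. The organoids were grown from hand-picked ducts of a pig the study calls late postnatal and of 1 it calls adult, 1 line each and at different passages. The study's filter settings, however, name both samples by postnatal days within its late postnatal range. Cultures were in Cultrex basement membrane extract with a medium that held WNT3a, R-spondin-1, noggin, EGF, FGF10, the TGF-beta receptor inhibitor A83-01, prostaglandin E2, gastrin, the ROCK inhibitor Y-27632, nicotinamide and N-acetylcysteine. For maintenance, an L-WRN conditioned medium supplement replaced the added WNT3a, R-spondin-1 and noggin. The primary libraries came from late postnatal pigs on different days. One pig was wild type, with ducts isolated by hand, and the other carried an INS-eGFP transgene, which the insulin promoter drives in beta cells, with cells binding the lectin DBA, eGFP-positive cells and whole suspension cells sorted and pooled. The labels do not tie a line, passage or pig to a library number. Line, age, medium, dissociation and sort therefore cannot be told apart from the groups, and p-values measure the spread between 2 libraries a group.

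Chemokines are small secreted proteins that bind receptors with 7 membrane passes and guide the movement of leukocytes. The atypical receptors of the ACKR series bind chemokines without the usual G protein signal and clear them from tissue. Interleukins signal through receptors of several chains that feed the JAK-STAT pathway or, for the IL-1 and IL-17 families, the NF-kB pathway. Several of the latter, among them IL1A, IL18 and IL33, are held inside epithelial or endothelial cells as precursors. In the pancreas, duct and islet cells are known to respond to IL-1 and to make chemokines in inflammation.

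Filters on genes and mitochondrial reads kept 8885 of 9853 and 7337 of 8071 PPDO barcodes. In the primary libraries, 5671 of 6999 and 4261 of 7657 barcodes were kept after the same kind of filters, a UMI limit in primary 2 and the removal of likely doublets. The files held 366263520 and 316018482 UMIs for the PPDO libraries and 87043513 and 138928395 UMIs for the primary ones. Primary cells were clustered without any member and named from marker lists. Ductal-like cells numbered 2314 and 1208 in the 2 primary libraries, endocrine-like 100 and 1647, endothelial-like 1197 and 264, mural-like 440 and 41, myeloid-like 454 and 65, T/NK-like 255 and 73, and acinar-like 257 and 56. Fibroblast-like cells (312 and 7) and Schwann-like cells (341 and 1) were read in primary 1 alone. A further 899 cells of primary 2 in clusters led by INS and TTR missed the limit for a name. The main ductal-like clusters of the 2 pigs were different, and 1311 cells of primary 1 formed a cluster, led among others by EREG, with no cell of primary 2. Free RNA was present. INS, the insulin gene, reached 103 CPM in ductal-like cells of primary 1 and 7799 CPM in those of primary 2, so a low level in other classes of primary 2 of a member that was high in endocrine-like cells is not read as expression. Pairs of libraries shared 10 to 23 cell barcodes.

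Across the 7 classes with at least 20 cells in each primary library, 41 of the 103 members reached 20 CPM in both libraries of at least 1 class. Myeloid-like cells had 23 such members, T/NK-like cells 17, endothelial-like and mural-like cells 14 each, ductal-like cells 9, endocrine-like cells 4 and acinar-like cells 2. Some of the 23 rested on very few cells of primary 2, as given below. PPDO had 9, of which 8 also passed in a primary class, and CXCL14 passed in PPDO alone. The remaining 61 members, among them IL2, IL4, IL5, IL13, IL17A, IL21 and IL22, did not meet it in both libraries of any of these groups. Class levels are a description without a test, since each class rests on 2 pigs that were sorted differently.

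The chemokine ligands divided the pancreas by cell class. Their summed level was 7000.3 and 2940.4 CPM in T/NK-like cells of primary 1 and 2, 8635 and 2240.2 CPM in myeloid-like cells, 2295 and 2592 CPM in endothelial-like cells, 2225 and 1774 CPM in mural-like cells and 1511 and 405 CPM in ductal-like cells. Acinar-like cells had 83.0 and 23.8 CPM and endocrine-like cells 128 and 25.2 CPM. Endothelial-like and mural-like sums were of like size in the 2 pigs, whereas those of T/NK-like, myeloid-like and ductal-like cells were higher in primary 1.

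CCL5, a chemokine of T cells and natural killer cells, reached 6249 and 2445 CPM in T/NK-like cells and 236 and 15.4 CPM in myeloid-like cells. After each cell was thinned to 3000 UMIs, 75.1% (69.1 to 80.5%) and 68.5% (56.6 to 78.9%) of T/NK-like cells held a CCL5 UMI (exact 95% binomial interval, counting error only; shallower cells were left out, so that 237 and 73 T/NK-like and 2083 and 1208 ductal-like cells were counted), against 0.624% and 0.166% of ductal-like cells. The unthinned shares were 75.7% and 72.6% of T/NK-like and 2.38% and 1.41% of ductal-like cells, at median depths of 5728 and 5502 UMIs per T/NK-like cell and 17356 and 20469 per ductal-like cell. In both pigs T/NK-like cells therefore stood far above the ductal-like cells. Whether the ductal-like share is free RNA was not tested. CCL4 and CCL3L1, inflammatory chemokines of the same CC class, were shared by the immune classes. CCL4 was at 593 and 317 CPM in T/NK-like and 2508 and 48.3 CPM in myeloid-like cells, and CCL3L1 at 93.8 and 151 CPM in T/NK-like and 973 and 15.4 CPM in myeloid-like cells. The myeloid-like levels of both lay far apart between the pigs, and those of T/NK-like cells lay closer. Ductal-like cells had CCL4 at 1.18 and 0.0786 CPM, below both immune classes in each pig.

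Myeloid-like cells had the most chemokine ligands at 20 CPM in both libraries, 9 against 4 each in endothelial-like and mural-like cells. Several of the 9 rested on very few cells of primary 2, so the ranking is uncertain there. CXCL2, a neutrophil chemokine, was at 2278 and 795 CPM, and CCL8, a monocyte chemokine that binds CCR2, was at 1582 and 21.6 CPM. CCL8 rested on 150 of 454 cells of primary 1 and 2 of 65 cells of primary 2, so its level in primary 2 is that of a pair of cells. The interferon-induced CXCR3 ligands rested on unequal numbers of cells. CXCL9 was at 287 and 394 CPM from 14 of 454 and 3 of 65 cells, CXCL10 at 123 and 499 CPM from 60 of 454 and 9 of 65 cells, and CXCL11 at 56.5 and 173 CPM from 7 of 454 and 1 of 65 cells. CXCL9 and CXCL11 were thus read in fewer cells than CXCL10 in each pig.

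Vascular and stromal classes had ligands of their own. CXCL12, the homeostatic ligand of CXCR4 and ACKR3 (RefSeq chromosome 14, 91516383 to 91543857, Sscrofa11.1), was at 1569.8 and 2157 CPM in endothelial-like cells, at 465 CPM in fibroblast-like cells of primary 1 and at 141 and 176 CPM in ductal-like cells. At 3000 UMIs per cell, 75.6% and 80.3% of endothelial-like and 26.3% and 30.6% of ductal-like cells held a UMI of it, against 1.27% and 2.74% of T/NK-like cells (unthinned 79.9% and 89.8% of endothelial-like, 64.1% and 77.5% of ductal-like and 2.35% and 5.48% of T/NK-like cells). The order of these 3 classes was the same in both pigs. CCL14 was at 298 and 265 CPM in endothelial-like and 136 and 84.3 CPM in myeloid-like cells, and had no UMI in mural-like cells of either pig. CCL21, which binds CCR7 on T cells and dendritic cells, was at 103 and 49.3 CPM in endothelial-like and 27.7 and 78.1 CPM in myeloid-like cells, and the order of these classes turned between the pigs.

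CCL19, the other CCR7 ligand (chromosome 10, 32110366 to 32112529), was highest in mural-like cells. It was at 764 and 1119.9 CPM in mural-like cells and at 44.6 CPM in fibroblast-like cells, and in the other 6 classes with cells of both pigs it did not pass 3.68 CPM, its level in endothelial-like cells of primary 1. Mural-like cells held 92.6% and 91.9% of all CCL19 UMIs of the 2 libraries, although they made up 7.76% and 0.962% of cells. CCL2, the main CCR2 ligand, was at 452 and 137 CPM in mural-like cells, 221 and 41.1 CPM in myeloid-like cells and 295 CPM in Schwann-like cells of primary 1. In myeloid-like cells of primary 2 all of its UMIs came from 1 of 65 cells.

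Ductal-like cells were the main source of CCL28, a mucosal chemokine of epithelia (chromosome 16, 27990024 to 28010859), a span that overlaps the uncharacterised gene LOC106508153. CCL28 was at 121 and 166 CPM in ductal-like cells, and ductal-like cells gave 98.9% and 98.2% of its UMIs in the 2 libraries. Ductal-like cells made up 40.8% and 28.4% of the kept cells. At 3000 UMIs per cell, 27.0% (25.1 to 28.9%) and 35.7% (33.0 to 38.5%) of them held a UMI, against 0.290% and 0.758% of endothelial-like cells (unthinned 68.0% and 84.3% of ductal-like and 0.919% and 0.758% of endothelial-like cells, with medians of 8647 and 9809 UMIs per endothelial-like cell). Its receptor CCR10 was at 0.572 and 3.87 CPM in T/NK-like cells, from 1 and 2 UMIs. CXCL14, an epithelial and stromal chemokine (chromosome 2, 137803988 to 137813118), was at 370.3 CPM in ductal-like cells of primary 1 and at 15.5 CPM in those of primary 2. CXCL2 in ductal-like cells was likewise apart, at 859 and 37.1 CPM, and so was CXCL2 in mural-like cells, at 858 and 49.3 CPM. Primary 1 was the higher library in each case.

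**Figure D1:**
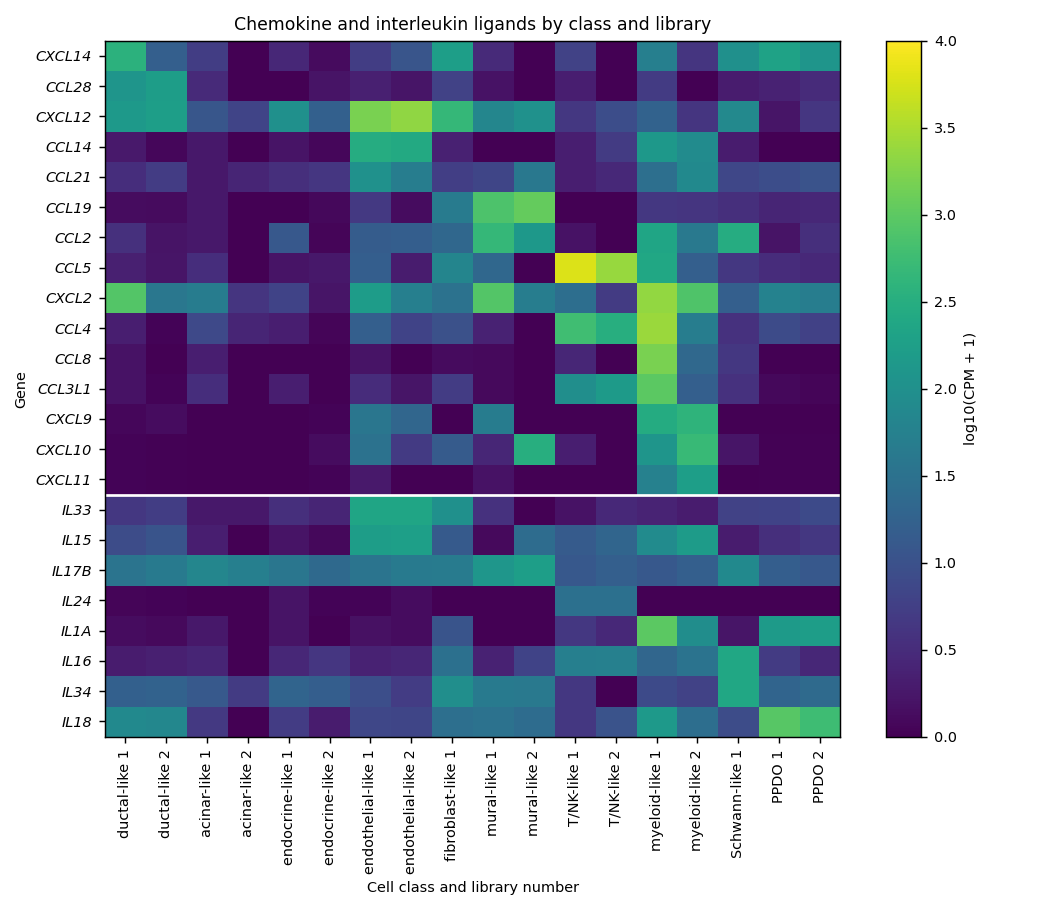
Chemokine ligands (upper rows) and interleukins (lower rows) by cell class and library; colour is log10(CPM + 1), and groups under 20 cells are left out. CCL28 was bright in both ductal-like columns, CCL19 in both mural-like columns, CCL5 in both T/NK-like columns and IL18 in both PPDO columns, whereas CXCL14 and CXCL2 were bright in ductal-like cells of library 1 only.

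The interleukins themselves were fewer. IL33, an alarmin of endothelial nuclei (chromosome 1, 215899830 to 215941944), was at 223 and 219.7 CPM in endothelial-like cells and 102 CPM in fibroblast-like cells of primary 1. It was under 5 CPM in ductal-like cells of both pigs, at 3.43 and 4.36 CPM, so the 2 endothelial-like libraries lay close to each other and far above the duct. Its receptor IL1RL1 was at 5.72 and 23.2 CPM in T/NK-like cells. IL15, which sustains natural killer and memory T cells, was at 166 and 178 CPM in endothelial-like and 83.7 and 158 CPM in myeloid-like cells. IL1A, an alarmin that signals through IL1R1, was at 983 and 91.5 CPM in myeloid-like cells and at 0.363 and 0.275 CPM in ductal-like cells. IL18, an inflammasome substrate stored by epithelia (chromosome 9, 39839959 to 39861258), was at 78.4 and 70.0 CPM in ductal-like and 145 and 26.7 CPM in myeloid-like cells, so that the highest class was myeloid-like in primary 1 and ductal-like in primary 2.

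Lower interleukins had less certain counts. IL16 was at 53.2 and 54.2 CPM in T/NK-like and 241 CPM in Schwann-like cells, and IL34, a ligand of the macrophage receptor CSF1R, at 238 CPM in Schwann-like, 95.3 CPM in fibroblast-like and 42.8 and 41.1 CPM in mural-like cells. IL24 was at 29.2 and 29.0 CPM in T/NK-like cells, but all of its UMIs came from an extension of the gene's 3′ end, and it overlaps FCMR, a receptor gene of lymphocytes. IL17B passed 20 CPM in 5 classes, led by mural-like cells with 124 and 173 CPM, and its RefSeq span overlaps PCYOX1L, GRPEL2, MIR143 and MIR145. Reads of such overlapping genes cannot be assigned with certainty here. IL6, IL10 and IL7 were low themselves, at 22.0 and 5.82 CPM for IL6 in endothelial-like cells, 15 and 7.2 CPM for IL10 in myeloid-like cells and 8.89 and 21.9 CPM for IL7 in mural-like cells. A 3′ extension gave 59.3% of the UMIs of IL6 and 52.4% of those of IL10.

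The receptors for these ligands were spread differently. The summed chemokine receptor level was 657 and 261 CPM in T/NK-like and 206 and 359 CPM in myeloid-like cells, and 8.97 and 13.1 CPM in ductal-like cells. CXCR4, the receptor of CXCL12, was at 506 and 94.9 CPM in T/NK-like and 54.5 and 161 CPM in myeloid-like cells, and the class with the higher level differed between the pigs. It was at 0.386 and 0.197 CPM in ductal-like cells. CCR7 was at 22.3 and 27.1 CPM in T/NK-like and 40.0 and 22.6 CPM in myeloid-like cells, the last value coming from 1 of 65 cells. The feature named CCR2, which the gene name table lists as CCR3, was at 24.0 and 27.1 CPM in T/NK-like and 27.5 and 62.7 CPM in myeloid-like cells. ACKR3, the CXCL12 scavenger, was spread over vessel and stroma, at 31.5 and 37.7 CPM in endothelial-like, 27.2 and 54.8 CPM in mural-like and 13.9 and 19.3 CPM in endocrine-like cells. CXCR3, the receptor of CXCL9 to CXCL11, was at 32.6 and 17.4 CPM in T/NK-like cells, with 60.8% of its UMIs from a 3′ extension. CCR1, another receptor of CCL3 type ligands, was at 7.37 and 53.5 CPM in myeloid-like cells.

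Interleukin receptors were highest in summed level in T/NK-like cells, at 2097 and 1152 CPM, and reached 954 and 1059.9 CPM in myeloid-like cells, 841 and 849 CPM in mural-like cells, 606 and 625 CPM in endocrine-like cells and 299 and 214 CPM in ductal-like cells. T/NK-like cells held IL12RB2 at 946 and 141 CPM and IL12RB1 at 42.9 and 58.1 CPM, the 2 chains of the IL-12 receptor. They also held IL7R at 128 and 170.3 CPM, IL4R at 502 and 215 CPM and IL27RA at 56.6 and 91.0 CPM. Each of these 5 genes was higher in T/NK-like cells than in ductal-like cells of the same pig, where IL12RB2 was at 2.16 and 1.34 CPM and IL4R at 54.0 and 21.4 CPM. IL10RA, the ligand-binding chain for IL-10, was at 260.3 and 359 CPM in myeloid-like and 157 and 170.3 CPM in T/NK-like cells, and its partner IL10RB at 60.6 and 54.5 CPM in myeloid-like cells.

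IL1R1, the signalling receptor of IL1A (chromosome 3, 52192912 to 52334734), was high in islet, mural and endothelial classes. It was at 389 and 467 CPM in endocrine-like cells, 323 and 192 CPM in mural-like cells, 158 and 206 CPM in endothelial-like cells and 10.4 and 17.1 CPM in ductal-like cells. The INS-led clusters without a name, 556 and 343 cells of primary 2, had 301 and 87.4 CPM. INS itself was at 565727 CPM or more in the cells without a name, which lowers the CPM of their other genes. IL1R1 was highest in endocrine-like cells among the 7 classes in both pigs. Its accessory chain IL1RAP was at 13.9 and 4.93 CPM in endocrine-like, 107 and 69.9 CPM in myeloid-like and 50.8 and 21.3 CPM in ductal-like cells. IL6R was at 83.8 and 66.2 CPM in endocrine-like cells, 115 and 78.1 CPM in myeloid-like cells and 27.5 and 2.79 CPM in ductal-like cells, with the 2 ductal-like values far apart.

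IL13RA1, the IL-13 receptor chain that pairs with IL4R, was at 198 and 323 CPM in mural-like cells, 139.9 and 130.1 CPM in endothelial-like cells, 124 and 179.9 CPM in myeloid-like cells and 36.4 and 21.1 CPM in ductal-like cells. IL31RA, a chain of the receptor for the itch cytokine IL-31, was at 48.4 and 65.7 CPM in mural-like cells and did not pass 1.14 CPM in the other 6 classes. IL20RA, a chain of the receptors for IL-19, IL-20, IL-24 and IL-26 (chromosome 1, 27137545 to 27172341), was at 22.7 and 45.2 CPM in ductal-like cells, 45.8 and 37.2 CPM in endocrine-like cells and 54.0 CPM in Schwann-like cells. It had no UMI in T/NK-like cells of either pig. IL1RAPL2, a neural member of the IL-1 receptor family, was at 1183 CPM in Schwann-like cells of primary 1, a class with 1 cell in primary 2.

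**Figure D2:**
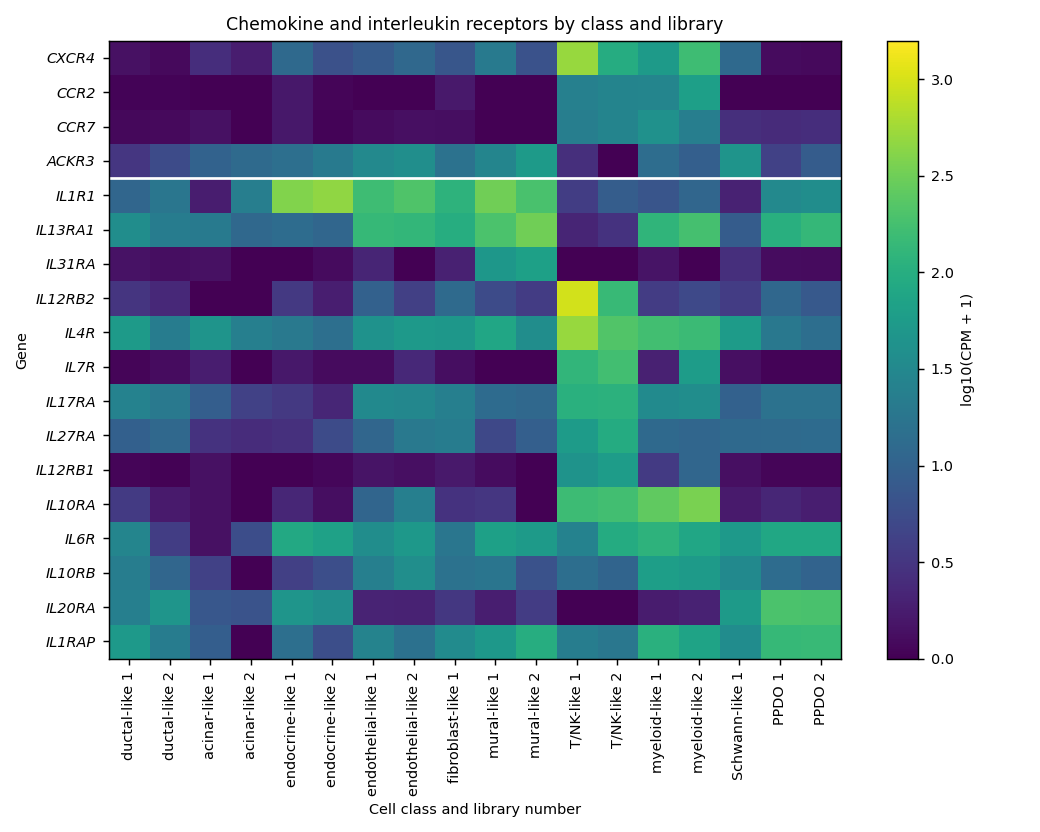
Chemokine receptors (upper rows) and interleukin receptors (lower rows) by cell class and library; colour is log10(CPM + 1), and groups under 20 cells are left out. IL1R1 was brightest in the endocrine-like columns, IL12RB2 and IL7R in the T/NK-like columns, IL31RA in the mural-like columns, and IL20RA and IL1RAP were brighter in the PPDO columns than in the ductal-like ones.

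Members also varied inside a class. Among endothelial-like clusters, the one led by SLCO2A1, VWF and TLL1 (250 and 48 cells) held IL33 at 597 and 824 CPM, IL1R1 at 487 and 718 CPM, CCL26 at 120.4 and 31.4 CPM and CXCL12 at 265 and 231 CPM. The main clusters with FABP5, FLT1 and PLVAP, a gene of fenestrated capillaries, among their leading genes had the reverse order. In primary 1 (674 cells) IL33 was at 47.1 CPM, IL1R1 at 46.5 CPM and CXCL12 at 2338 CPM, and in primary 2 (192 cells) they were at 58.1, 76.1 and 2774 CPM. Between these clusters IL33 and IL1R1 were thus higher in the first and CXCL12 in the second in both pigs. A cluster led by CLDN5 and SLPI (149 and 21 cells) did not follow that pairing, with IL33 at 261 and 198 CPM, IL1R1 at 15.1 and 84.4 CPM and CXCL12 at 636 and 1461 CPM. A further cluster led by FABP5, with 124 cells of primary 1 alone, had CXCL9 at 616 CPM and CXCL10 at 303 CPM. IL15 was less uneven, at 125 and 103 CPM in the cluster led by SLCO2A1 against 195 CPM (primary 1) and 201 CPM (primary 2) in the clusters led by FABP5 or PLVAP.

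Myeloid-like cells split likewise. In primary 1, the cluster led by the complement genes C1QB, C1QA and C1QC (204 cells) held CCL8 at 2540.1 CPM, IL1A at 1514 CPM, CCL2 at 355 CPM, CXCL9 at 437 CPM and IL18 at 212 CPM. In the cluster led by CD300C (250 cells of primary 1) the same genes were at 21.3, 119, 1.94, 42.6 and 35.5 CPM. CXCL2 and IL10RA ran the other way, at 4924 and 391 CPM in the latter and 654 and 180.3 CPM in the former. Primary 2 had 51 cells of the cluster led by CD300C and 14 of the other, so this split was read in 1 pig. CCL8 and IL1A were lower in myeloid-like cells of primary 2 as a whole. They were also lower there within the cluster led by CD300C, at 0 and 53.3 CPM against 21.3 and 119 CPM in primary 1. The part of the clusters in the difference between the pigs was not tested.

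Among the main ductal-like clusters CCL28 varied less than CXCL2, CXCL14 and IL6R. The cluster led among others by EREG (1311 cells, primary 1) had CXCL2 at 1112 CPM, CXCL14 at 393 CPM and IL6R at 35.2 CPM. A second cluster of the same pig (436 cells) had CXCL2 at 20 CPM, CXCL14 at 366 CPM and IL6R at 1.03 CPM, so that CXCL14 was as high there and CXCL2 and IL6R were not. A shallower cluster, led by PKHD1 and SLC4A4 (443 cells of primary 1 and 17 of primary 2), had in primary 1 CXCL2 at 217 CPM, CXCL14 at 70.9 CPM and IL6R at 12.7 CPM. The main cluster of primary 2 (1107 cells) had them at 32.9, 16.1 and 2.81 CPM. CCL28 was at 120.4, 145, 56.4 and 163 CPM in these 4 clusters, in the order given. A shallow ductal-like cluster with DEFB115 and KRT7 among its leading genes (123 and 20 cells) had CCL28 at 231 and 315 CPM, from 41 and 26 UMIs. In primary 1 this cluster had CXCL14 at 1250 CPM, above the 4 other clusters, and CXCL2 at 952 CPM. Its cells of primary 2, with 82607 UMIs in all, had no UMI of CXCL14 or CXCL2. In the SST- and GCG-led endocrine-like cluster (55 and 410 cells), IL1R1 was at 473 and 1185 CPM and IL6R at 192 and 109 CPM, above 358 and 535 and 47.7 and 74.6 CPM in the INS-led cluster with cells of both pigs. INS was at 18032 and 34728 CPM in the former, and in INS-rich cells it lowers the CPM of other genes. The part of INS in these differences was not tested.

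**Figure D3:**
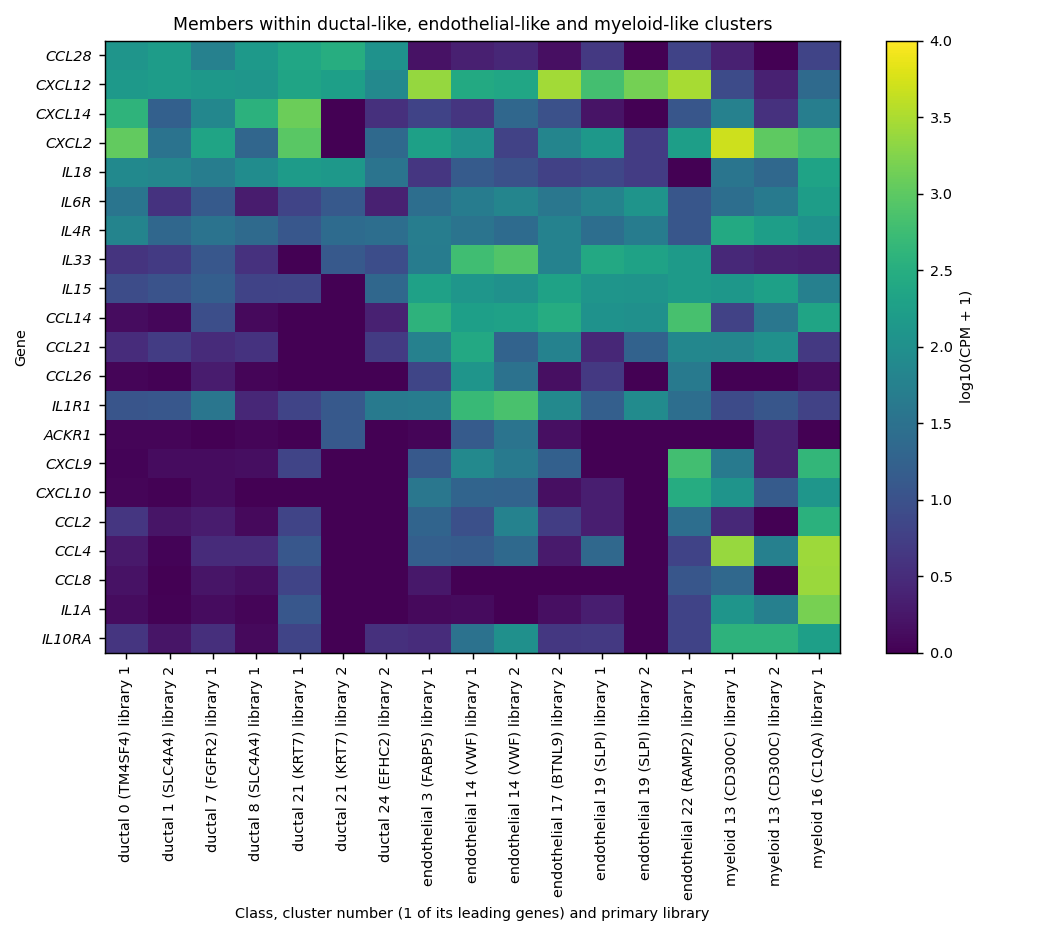
Members within ductal-like, endothelial-like and myeloid-like clusters, by primary library; colour is log10(CPM + 1), clusters under 20 cells in a library are left out, and each cluster is marked by its number and 1 of its leading genes. IL33 and IL1R1 were bright in endothelial cluster 14 of both libraries, where CXCL12 was dimmer than in clusters 3, 17 and 22.

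The second comparison asked which members organoid cells keep or lose against the duct. Summed UMIs of all PPDO cells were compared with those of ductal-like cells of the primary libraries by edgeR's quasi-likelihood test, with Benjamini-Hochberg adjustment over 23570 genes. In sums, fewer cells with a gene and less RNA per cell cannot be told apart. Of all genes tested, 43.6% differed at an adjusted p under 0.05, 22.7% higher and 20.9% lower in PPDO. Of the 103 members 86 had enough UMIs for the test, and 27 of these were higher in PPDO, 12 were lower and 47 were not called. The share higher among tested members, 31.4%, lay above the 22.7% of all genes, and the share lower, 14%, below the 20.9%. The median log2 fold change (PPDO over primary) of tested members was 0.48, or 0.40 with CCR6 and IL25, which had no UMI in the primary sums, set at their bound, against 0.01 for all genes tested.

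The split depended on the scaling. With library totals in place of TMM factors the median of all genes moved to −0.45, 3222 genes were higher and 7002 lower (31.5% of calls higher against 52.1%), and 20 members were higher and 16 lower (55.6% against 69.2%). Relative to the median of all genes, the median member was 0.48 higher under both scalings, but 0.06 higher without the filter on low counts, 0.20 with doublets kept, 0.38 without PPDO 2, 0.75 without the ductal-like cluster led by EREG, 0.85 without primary 1 and 0.95 in thinned sums. By kind, 4 chemokine ligands were higher and 5 lower of 18 tested, 4 chemokine receptors higher and 0 lower of 14, 8 interleukins higher and 4 lower of 26, and 11 interleukin receptors higher and 3 lower of 28. The ductal marker list summed to 1179.6 and 1022 CPM in PPDO and 30358 and 34142 CPM in primary ductal-like cells, with all 10 matched markers detected in each sum. SLC4A4, a bicarbonate transporter, gave 22168 and 25838 CPM of the primary sums, and the highest single marker was at 418 CPM in PPDO 1 (SLC4A4) and at 384 CPM in PPDO 2 (KRT7). The T/NK list summed to 11.2 and 10.2 CPM in PPDO and 12.1 and 15.5 CPM in the ductal-like sums, and the myeloid list to 39.2 and 39.3 against 9.90 and 8.25 CPM. The complement gene C1QC was at 0 in both PPDO libraries and KLRB1, of natural killer cells, in all 4 sums.

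Members of the IL-1 family were among those higher in PPDO. IL1A (chromosome 3, 43718320 to 43731668) was at 152 and 169 CPM in PPDO 1 and 2 and at 0.363 and 0.275 CPM in ductal-like cells, the latter from 16 and 7 UMIs. The log2 fold change was 9.38 ± 0.28 (SE; edgeR adjusted p = 0.000346), and 28.5% and 30.7% of PPDO cells held a UMI at 3000 UMIs per cell against 0.0480% and 0.0828% of ductal-like cells. IL18 was at 912 and 568 CPM in PPDO and 78.4 and 70.0 CPM in ductal-like cells (log2 3.76 ± 0.30, edgeR adjusted p = 0.00158), and 85.4% and 71.3% against 19.3% and 16.0% of thinned cells held a UMI. Both PPDO libraries lay above both primary libraries for each gene, while IL18 differed between the PPDO libraries more than it did between the primary ones. Unthinned shares of PPDO cells were 72.5% and 75.0% for IL1A and 99.3% and 98.4% for IL18, at medians of 34176 and 34459 UMIs per cell.

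Of the receptors of the same family, IL1RL2, IL1RAP, IL1R1 and IL1R2 were higher in PPDO. IL1RL2, the receptor of the IL-36 cytokines of stratified epithelia (chromosome 3, 51978857 to 52011607), was at 9.64 and 11.4 CPM in PPDO and at 1 UMI in each primary sum. The ratio of pooled levels, on library totals without TMM factors, was 364 with a 95% counting interval of 101 to 3007 (edgeR adjusted p = 0.000525, with TMM factors). IL1RAP was at 137 and 143 CPM in PPDO and 50.8 and 21.3 CPM in ductal-like cells (log2 2.36 ± 0.52, edgeR adjusted p = 0.0222), and IL1R1 at 30.8 and 36.4 against 10.4 and 17.1 CPM (log2 1.78 ± 0.24, adjusted p = 0.00567). IL1R1 was high in endocrine-like cells, and how much of the 17.1 CPM of primary 2 was free RNA was not tested. The call of IL1RAP was lost without PPDO 1 and without PPDO 2, at an edgeR adjusted p of up to 0.0742. IL1R2, the decoy receptor, was called higher on 0.372 and 0.823 against 0.0681 and 0.0393 CPM, the latter from 3 and 1 UMIs, and lost its call without PPDO 2 and without either primary library, at an edgeR adjusted p of up to 0.0745. IL1RAPL1, at 0.731 and 0.846 against 3.0 and 1.97 CPM (log2 −1.22 ± 0.41, edgeR adjusted p = 0.0675), and IL1RAPL2, at 1.18 and 0.896 against 4.99 and 2.28 CPM (log2 −1.41 ± 0.53, adjusted p = 0.0906), were not called by edgeR, whereas DESeq2 called both lower (adjusted p = 0.0183 and 0.0281). IL1RL1, the IL-33 receptor, was not called either (log2 −0.13 ± 0.50, edgeR adjusted p = 0.854). The IL-18 receptor chains IL18R1 and IL18RAP had too few UMIs to test, with IL18R1 at 0.0465 and 0.0724 CPM in PPDO and 0.0454 and 0.0393 CPM in ductal-like cells.

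Receptors for the IL-20 and IL-13 groups were called in both directions or not at all. IL20RA was at 196 and 189.5 CPM in PPDO and 22.7 and 45.2 CPM in ductal-like cells (log2 3.0 ± 0.29, edgeR adjusted p = 0.00254), and IL13RA1 at 104 and 136 against 36.4 and 21.1 CPM (log2 2.49 ± 0.40, adjusted p = 0.00937). IL22RA1, which pairs with an IL-20 receptor chain, was at 2.27 and 2.43 against 0.840 and 1.41 CPM and was called too (edgeR adjusted p = 0.0207), a call lost without TMM and without either PPDO library (up to 0.125). IL13RA2, a decoy receptor of IL-13, was lower, at 0.0764 and 0.0991 against 0.340 and 0.393 CPM (log2 −1.59 ± 0.39, edgeR adjusted p = 0.0312), a call lost in 8 of 12 alternatives. IL4R, the partner of IL13RA1, was at 18.3 and 13.5 against 54.0 and 21.4 CPM and was not called (log2 −0.85 ± 0.54, edgeR adjusted p = 0.258), nor was IL22RA2, the soluble IL-22 receptor (log2 −1.37 ± 0.53, edgeR adjusted p = 0.0960). The ligands of these receptors were under 2 CPM in all 4 sums. IL19 was higher in PPDO, at 0.980 and 0.960 against 0.295 and 0.275 CPM (edgeR adjusted p = 0.00955), a call lost without either PPDO library (0.0649 and 0.0718). IL24, at 0.00997 and 0.0152 against 0.136 and 0.0786 CPM (edgeR adjusted p = 0.0281), and IL13, at 0.0365 and 0.0267 against 0.159 and 0.314 CPM (edgeR adjusted p = 0.0199), were lower, each on at most 11 UMIs a library. All UMIs of IL24 and IL13 came from a 3′ extension. The call of IL24 was lost in 3 of the 6 alternatives that gave it a value, at adjusted p of up to 0.129, and that of IL13 in 3 of 12, at up to 0.188 (edgeR or DESeq2). IL20, at 0.213 and 0.297 against 0.159 and 0.197 CPM, and IL4, at 0.664 and 0.617 against 0.749 and 1.34 CPM, were not called (edgeR adjusted p = 0.132 and 0.679), with 59.3% and 96.4% of their UMIs from a 3′ extension. IL12RB2 was at 10.6 and 6.83 CPM in PPDO and 2.16 and 1.34 CPM in ductal-like cells (log2 2.73 ± 0.42, edgeR adjusted p = 0.00842), far under its T/NK-like level, and 30.3% of its UMIs came from a 3′ extension.

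The 4 chemokine ligands that were higher in PPDO stayed under 20 CPM there. CCL27, a skin chemokine that binds CCR10, was at 8.79 and 15.8 CPM in PPDO and 0.545 and 0.983 CPM in ductal-like cells (log2 4.53 ± 0.47, edgeR adjusted p = 0.00298), and IL11RA starts 4 bases beyond it. CCL21 was at 7.97 and 9.58 against 2.29 and 4.13 CPM (adjusted p = 0.00900), CCL19 at 1.63 and 1.76 against 0.363 and 0.314 CPM (adjusted p = 0.00531), and their receptor CCR7 at 1.5 and 1.64 against 0.159 and 0.197 CPM (adjusted p = 0.00286). CCL21 lost its call without PPDO 2, at an adjusted p of 0.0609, and CCL19 lost it when doublets were kept (0.893) or the clustering was finer (0.0640). CCL4 was at 7.2 and 5.04 CPM in PPDO and 1.18 and 0.0786 CPM in ductal-like cells, the latter from 52 and 2 UMIs, and its edgeR adjusted p was 0.0499, lost in 6 of 13 alternatives. IL25 was at 0.844 and 0.656 CPM in PPDO and had no UMI in the ductal-like sums, which makes it at least 5.56-fold higher against 3 counts per library. CCR6 had 47 UMIs in the PPDO sums and 0 in the ductal-like ones, which is too few for a fold, and its call was lost in 4 of the 9 alternatives that gave it a value. A 3′ extension gave 98.6% of the UMIs of CCR6.

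IL17D, IL33, IL34 and IL27RA differed by less. IL17D was at 13.8 and 13.8 against 5.49 and 7.23 CPM (log2 1.59 ± 0.18, edgeR adjusted p = 0.00382), with 35.7% of its UMIs from a 3′ extension. IL33 was at 5.49 and 6.81 CPM in PPDO and 3.43 and 4.36 CPM in ductal-like cells (adjusted p = 0.0232), IL34 at 18.3 and 23.6 against 15.6 and 17.1 CPM (adjusted p = 0.0334), and IL27RA at 11.7 and 12.2 against 8.49 and 11.0 CPM (adjusted p = 0.0267). The last 3 lost their call with library totals in place of TMM factors, at edgeR adjusted p of 0.137, 0.253 and 0.377. IL33 also lost its call with doublets kept (edgeR adjusted p = 0.0627) and without either PPDO library. IL34 and IL27RA lost theirs in 6 of 13 alternatives each.

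The ligands CCL28 and CXCL12, both above 100 CPM in the primary duct, were lower in PPDO. CCL28 was at 1.46 and 2.15 CPM in PPDO and 121 and 166 CPM in ductal-like cells (log2 −5.83 ± 0.31, edgeR adjusted p = 0.000708), and 0.408% and 0.532% of PPDO cells held a UMI at 3000 UMIs per cell. CXCL12 was at 0.684 and 3.29 CPM in PPDO and 141 and 176 CPM in ductal-like cells (log2 −5.83 ± 0.90, edgeR adjusted p = 0.00817), with its 2 PPDO libraries unequal but both far under the primary ones. The PPDO shares of CCL28 lay between those of endothelial-like cells of the 2 pigs. As ratios of pooled levels, CCL28 was 77.2 (95% counting interval 72.3 to 82.4) and CXCL12 81.1 (76.2 to 86.5) times higher in ductal-like cells. These ratios use library totals, whereas the log2 fold changes use TMM factors, so the 2 scales differ. CXCL12 was also high in endothelial-like cells, whose marker list summed to 131 and 71.9 CPM in ductal-like cells, against 10702 and 13306 CPM in endothelial-like cells.

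The IL-17 family was mixed, with IL17D and IL25 higher and the following lower. IL17RB, a chain of the IL-25 receptor, was at 1.81 and 1.81 CPM in PPDO and 10.4 and 13.9 CPM in ductal-like cells (log2 −2.27 ± 0.22, edgeR adjusted p = 0.00252), with 68.7% of its UMIs from a 3′ extension and an overlap with CHDH and ACTR8. IL17RD, also known as a brake on FGF signals, was at 3.56 and 3.19 against 14.1 and 20.1 CPM (log2 −1.86 ± 0.21, adjusted p = 0.00345), IL17B at 14.5 and 11.9 against 34.1 and 42.1 CPM (log2 −1.06 ± 0.16, adjusted p = 0.00755), and IL15, of another family, at 2.48 and 3.39 against 7.49 and 9.94 CPM (log2 −1.09 ± 0.28, adjusted p = 0.0341). IL17RA, the shared chain of this family, was not called, at 15.1 and 14.9 CPM in PPDO and 25.4 and 18.8 CPM in ductal-like cells (adjusted p = 0.742). IL17B lost its call without PPDO 2, at an edgeR adjusted p of 0.0673, and IL15 without PPDO 1, PPDO 2 or primary 2, at up to 0.176.

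Some abundant members were not called, and their primary libraries lay far apart. CXCL2 was at 57.6 and 48.5 CPM in PPDO and 859 and 37.1 CPM in ductal-like cells (log2 −2.73 ± 1.43, edgeR adjusted p = 0.184). Its log2 fold change was 1.05 against primary 2 alone and −3.70 against primary 1 alone. With 1 primary library left, the spread between the pigs is not measured, so only fold changes are given. CXCL14 was at 199 and 121 CPM in PPDO and 370.3 and 15.5 CPM in ductal-like cells (edgeR adjusted p = 0.973). Its log2 fold change was 3.89 against primary 2 alone and −0.90 against primary 1 alone. CXCL8, the neutrophil chemokine of CXCR1 and CXCR2, was at 1.24 and 2.56 against 7.60 and 0.197 CPM (adjusted p = 0.724). IL6R was at 80.6 and 80.0 CPM in PPDO and 27.5 and 2.79 CPM in ductal-like cells (log2 2.76 ± 1.09, adjusted p = 0.103). Both PPDO values of IL6R lay above both primary values. IL6R was called higher without the ductal-like cluster led by EREG (edgeR adjusted p = 0.000214). That cluster had the highest IL6R of the main ductal-like clusters, so leaving it out raises the fold by itself and is no independent support. Without that cluster CXCL2 had a log2 fold change of 0.22 (edgeR adjusted p = 0.708) and CXCL8 one of 3.60 (edgeR adjusted p = 0.00738). The cluster held cells of primary 1 alone, the pig with the higher CXCL2 and CXCL8, and was left out after the data were seen. These 2 values are therefore no independent support either.

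**Figure D4:**
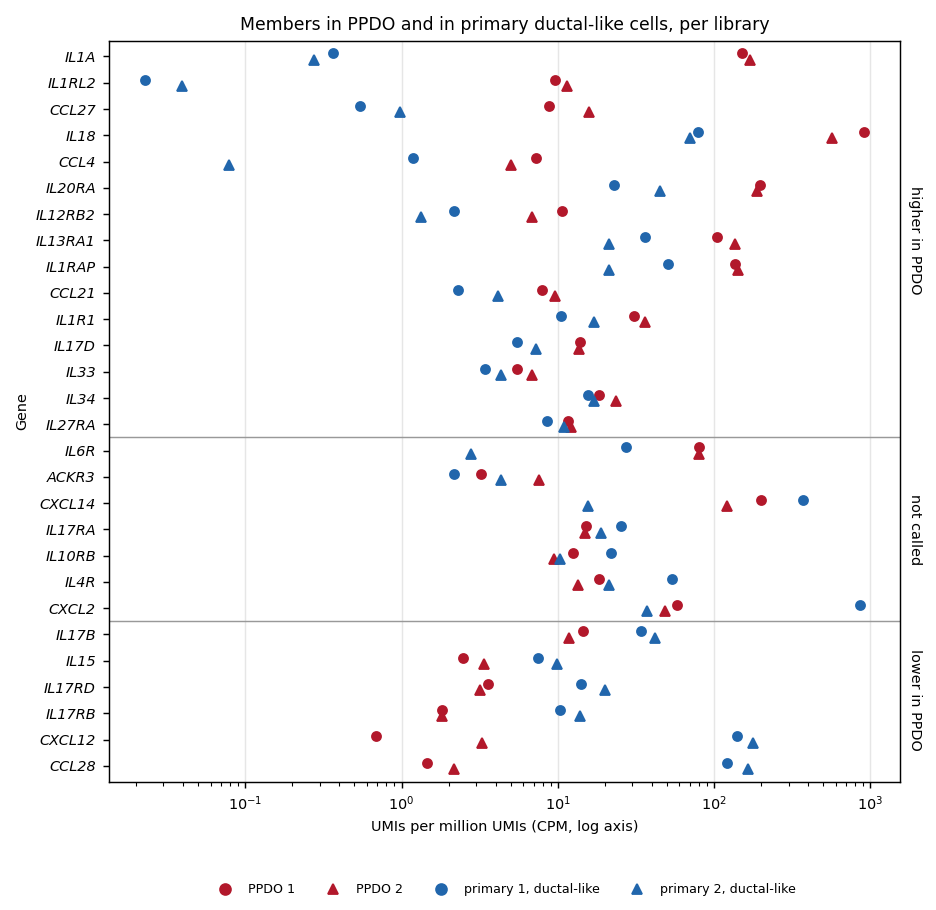
CPM on a log axis of the members called between PPDO (red) and primary ductal-like cells (blue) with a mean of at least 5 CPM in either group, and of 7 named members that were not called; circles are library 1 and triangles library 2 of each group. The colours separated for IL1A, IL18 and CCL28, and for CXCL2 and CXCL14 the 2 blue symbols stood far apart with the red ones between or beside them.

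Of 57 listed signalling genes downstream of these receptors or outside the name rule, 51 were matched and tested, 5 were higher in PPDO (9.80%) and 11 lower (21.6%), with a median log2 fold change of −0.39. Of all genes 22.7% were higher and 20.9% lower, so that the share higher lay below that of all genes and the share lower close to it. Without the ductal-like cluster led by EREG there were 11 higher and 13 lower, with a median of 0.13, so that the sign of the median turned. Library totals in place of TMM factors gave 1 higher and 18 lower. Against primary 2 alone there were 15 higher and 14 lower, with a median of 0.22, and against primary 1 alone 3 higher and 23 lower, with a median of −0.61. In the IL-1 and NF-kB branch (1 higher, 3 lower of 20) IRAK3, an inhibitory kinase of the IL-1 receptor complex, was at 9.94 and 10.3 CPM in PPDO and 94.5 and 98.2 CPM in ductal-like cells (log2 −2.79 ± 0.15, edgeR adjusted p = 0.000768). IRAK1, an activating kinase, was at 4.63 and 4.25 against 12.3 and 15.2 CPM (adjusted p = 0.00907), TRAF6 at 26.2 and 25.6 against 48.4 and 53.2 CPM (adjusted p = 0.0367), and CHUK, a kinase of the NF-kB inhibitor, at 12.7 and 12.7 against 9.35 and 8.49 CPM (higher, adjusted p = 0.0222). CHUK lost its call without TMM, in thinned sums and without either PPDO library (edgeR adjusted p of up to 0.126), TRAF6 lost it in 5 alternatives (up to 0.213) and IRAK1 without either PPDO library (up to 0.0743). The NF-kB inhibitor NFKBIA, at 117 and 135 against 402 and 80.7 CPM, was not called (adjusted p = 0.610), again with primary libraries far apart.

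In the JAK, STAT and SOCS group (1 higher, 6 lower of 16) SOCS3, the feedback inhibitor of IL-6 signals, was at 0.754 and 0.911 CPM in PPDO and 40.0 and 5.86 CPM in ductal-like cells (log2 −4.41 ± 1.07, edgeR adjusted p = 0.0293). STAT2 was at 3.92 and 3.85 against 13.3 and 16.4 CPM (adjusted p = 0.00494), PTPN6 at 8.40 and 8.22 against 26.0 and 31.6 CPM (adjusted p = 0.00382), and STAT6, which acts under IL-4 and IL-13, at 12.0 and 11.8 against 9.96 and 10.4 CPM (higher, adjusted p = 0.0350). STAT6 lost its call without TMM, with the replicate block, without either PPDO library and without primary 2 (edgeR adjusted p of up to 0.438), and SOCS3 with the block and without either PPDO library (up to 0.122). Among receptor chains and ligands (3 higher, 2 lower of 15) LIFR was at 9.77 and 8.03 against 65.5 and 42.4 CPM (lower, adjusted p = 0.00807) and CSF1, the macrophage growth factor, at 3.93 and 3.70 against 40.0 and 14.8 CPM (lower, adjusted p = 0.0281). LIFR lost its call without PPDO 2 (edgeR adjusted p = 0.0514) and CSF1 without either PPDO library (up to 0.114). IL6ST, the gp130 chain that signals with IL6R, was at 58.8 and 58.3 CPM in PPDO and 279 and 119 CPM in ductal-like cells and was not called (log2 −1.36 ± 0.49, adjusted p = 0.0854).

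Within PPDO, members varied among 9 clusters found in both lines. IL18 was highest in the cluster led by SPP1 and WFDC2 and matching the ductal list (283 and 177 cells), at 1751 and 1262 CPM, and lowest in the one led by SLPI and S100A8 (298 and 428 cells) in both libraries, at 577 and 234 CPM. CXCL2 at 115 and 212 CPM, CXCL8 at 10.2 and 34.5 CPM, IL34 at 56.9 and 101 CPM and IL10RB at 26.4 and 31.9 CPM were also highest in the former. In the cluster with most cells, led by PTGS2 and IGFBP6 (1785 and 2178 cells), CXCL2 was at 26.6 and 29.3 CPM, CXCL8 at 0.240 and 0.347 CPM, IL34 at 11.5 and 18.3 CPM and IL10RB at 10.6 and 8.42 CPM. IL33 was low in the former, at 0.485 and 0.526 CPM against 10.0 and 11.5 CPM in the cluster led by HMCN1 and LGR6.

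The cluster led by SLPI and S100A8, genes of stratified epithelia, had its own set. IL1RL2 was at 60.8 and 76.3 CPM, CCL27 at 42.7 and 89.0 CPM and IL13RA1 at 238 and 326 CPM, the highest of the 9 clusters in both libraries. In the cluster led by HMCN1 and LGR6, which matched the WNT list (2068 and 1597 cells), IL1RL2 was at 2.93 and 4.04 CPM, CCL27 at 6.27 and 8.28 CPM and IL13RA1 at 69.3 and 82.8 CPM. The latter held the highest CXCL14, at 484 and 297 CPM against 5.33 and 4.13 CPM in the cluster led by SLPI, and the highest IL1RAP, at 224 and 232 against 28.3 and 24.3 CPM. ACKR3 was at 10.4 and 12.0 CPM in the cluster led by ADM and EGLN1 and at 0.884 and 2.12 CPM in the one led by BBOX1 and MMP3, and it was higher in PPDO 2 than in PPDO 1 in every cluster but the one led by SLPI.

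Other members varied less. IL1A lay between 69.4 CPM in the cluster led by NMB in PPDO 2 and 208 CPM in the one led by HMCN1 of the same library, and IL20RA between 97.9 CPM in the cluster led by ADM and 257 CPM in the one led by PTGS2, both in PPDO 1. CXCL12 did not pass 4.11 CPM and CCL28 did not pass 7.89 CPM in any cluster of either line, so no PPDO cluster of 20 or more cells held these ligands at the level of primary ductal-like cells. The cluster that matched the ductal list had CCL28 at 1.55 and 7.89 CPM.

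**Figure D5:**
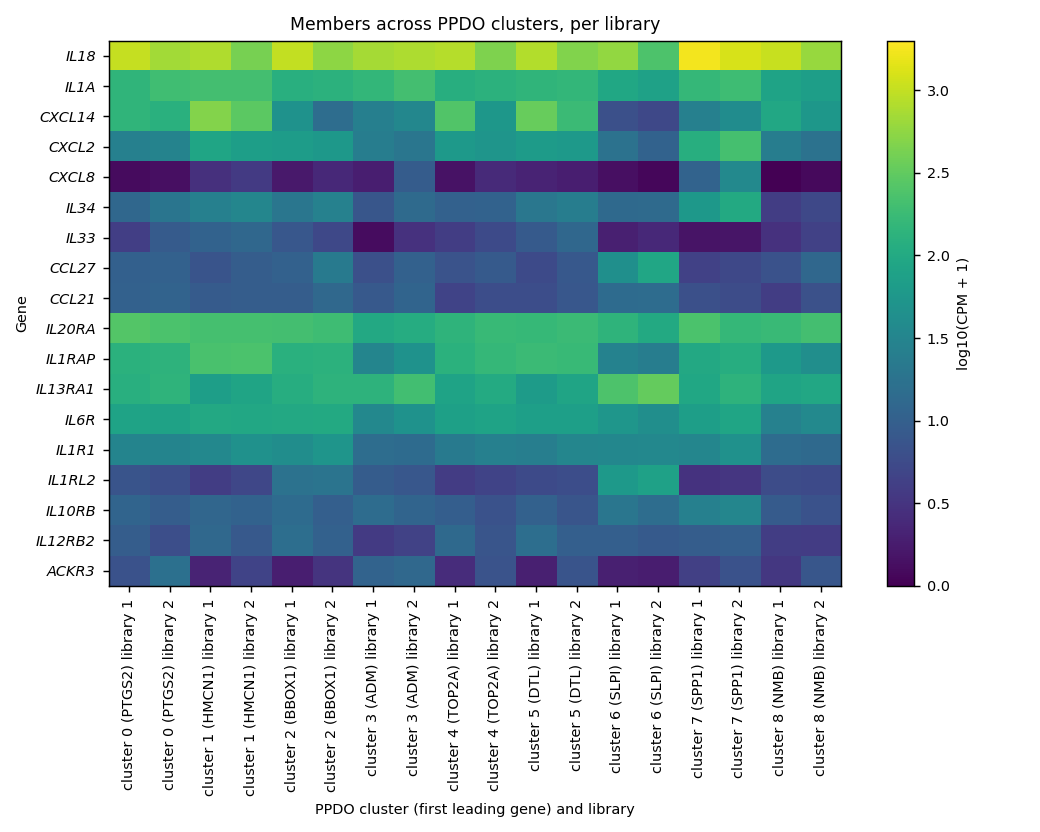
Members across PPDO clusters, with the 2 libraries of a cluster side by side; colour is log10(CPM + 1), and clusters are marked by number and first leading gene. CXCL14 was brightest in cluster 1, IL1RL2 and CCL27 in cluster 6, and IL18, CXCL8 and IL34 in cluster 7, in both libraries.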

How the data were processed

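Each of the 4 libraries was deposited by the authors as a 10x matrix of UMI counts per gene feature and cell barcode, made with Cell Ranger 7.1.0 against a pig annotation that the authors had extended at 3′ ends. The counts are raw, and ambient RNA removal was not part of them. The feature and barcode tables deposited beside each matrix hold no measurement. Whether counting used strand is not given in the sources used here.

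Feature names with an extension were summed with their gene (56060 features, 30282 genes). PPDO cells were kept with at most 3% mitochondrial UMIs and 1000 to 9000 features. Primary cells were kept with at most 8% and over 400 features (primary 1) or over 800 features and 3000 UMIs (primary 2), the study's limits for its first and second sample, taken to be the libraries of the same number, which the labels do not settle. Scrublet removed 89 and 154 likely doublets from the primary libraries, and PPDO cells were not scored. Cells were clustered with Scanpy 1.11.5 (2000 variable genes without any member, 20 components, 15 neighbours, Leiden resolution 0.5). A cluster took the name of the marker list with the highest mean log2 fold (at least 1 for primary clusters), and the naming limits were set after the clusters were seen. The main ductal-like clusters differ between the pigs. UMIs were summed per library and class, and PPDO was compared with primary ductal-like sums by edgeR 4.0.16 (quasi-likelihood, TMM, 2 against 2; R 4.3.3). An exact permutation test on 2 against 2 cannot give a p below 0.333. In simulated sums of 23805 genes, 88.2% of 195 genes changed by a log2 fold of 2 were recovered with 11 false calls. The simulated dispersion, a measure of the spread between libraries, was 0.05, against a common dispersion of 0.0919 in the real sums. Far more genes were called in the real sums, at 43.6%, so these rates do not carry over to them.

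Members named with values were those with at least 20 CPM in both libraries of a class or of PPDO, those called with a mean of at least 5 CPM in either group, and their ligand or receptor partners; other called members were named by count or after their values were seen. The members and lists were chosen with earlier results of these data known. CXCR1, CXCR2, IL1B, IL1RN, IL15RA, IL20RB, CXCL16, CCL20 and IL17RC were not analysed here, and 1 member that enters the counts is not reported here. Gene positions are those of RefSeq on Sscrofa11.1. By that annotation 30 members overlap another gene, and for 29 over 50% of UMIs came from an extension. Intervals and floors (3 counts) cover counting error only. The alternatives were DESeq2 1.42.0, no filter on low counts, a replicate block, each library left out, thinned sums, doublets kept, a finer clustering and, chosen after seeing the data, library totals without TMM, 1 filter for both primary libraries (over 800 features and 3000 UMIs) and the EREG-led ductal-like cluster left out.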

Additional observations from a re-analysis of the deposited data

How the results depend on the processing

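The count of genes that differed between PPDO and primary ductal-like cells was 10267. Leaving out 1 library gave 4722 to 10705 genes, the lowest values without PPDO 2 (4722) and without PPDO 1 (5155). For members, where 39 were called, the range was 17 to 35, with 17 without PPDO 2 and 21 without PPDO 1, and for signalling genes, where 16 were called, it was 3 to 29, with 3 without PPDO 2, 5 without PPDO 1, 29 without primary 1 and 26 without primary 2. The lone library was then assumed to vary like the other group. Deviations of samples with the same number had a correlation of r = −0.0082 over 23570 genes. With 2 libraries a group this sets 1 contrast against 1 other, so it cannot settle whether the numbers pair samples. The numbers were read as names only. With the replicate block 22 members were higher and 8 lower, and 10 signalling genes were called. DESeq2 called 11049 genes and gave 28 members higher and 11 lower, no filter on low counts gave 28 and 11, thinned sums 25 and 6 of 59 tested, doublets kept 24 and 12, the finer clustering 25 and 11, and 1 filter for both primary libraries 26 and 12. Of the 21 called members with at least 5 CPM, 13 kept their call in all 13 alternatives, CCL27, CCL28, CXCL12, IL12RB2, IL13RA1, IL17D, IL17RB, IL17RD, IL18, IL1A, IL1R1, IL1RL2 and IL20RA. The other 8, CCL21, CCL4, IL15, IL17B, IL1RAP, IL27RA, IL33 and IL34, lost it in at least 1, and 0 changed direction. The causes were not tested. Over 20 CPM in a class were 41 members, 41 with doublets kept, 43 with the finer clustering and 41 with 1 filter for both primary libraries. Depth limits the small classes of primary 2, where 3 counts are 8.21 CPM in mural-like and 5.81 CPM in T/NK-like cells.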

Other observations

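Some cytokine genes fell outside the rule because the feature tables name them by identifier, and the gene name table gave their symbols. They were chosen after their values were seen. IL2RG, the common gamma chain shared by the receptors of IL-2, IL-4, IL-7, IL-15 and IL-21, was at 116 and 134 CPM in T/NK-like and 45.4 and 97.7 CPM in myeloid-like cells. IL2RB, its partner for IL-2 and IL-15, was at 269 and 257 CPM in T/NK-like cells. Both T/NK-like chains were therefore present in each pig beside the endothelial-like IL15. In PPDO, IL2RG was at 0.0299 and 0.0572 CPM and IL2RB at 0.0831 and 0.0572 CPM, against 0.295 and 0.393 and 0.976 and 0.865 CPM in ductal-like cells, and both were called lower (edgeR adjusted p = 0.0185 and 0.00480). The ductal-like levels rested on 13 and 10 UMIs of IL2RG and 43 and 22 UMIs of IL2RB. They lay far under the T/NK-like levels, and whether they are free RNA was not tested. IL11RA, the IL-11 receptor, was at 16.6 and 24.8 CPM in PPDO and 14.8 and 20.3 CPM in ductal-like cells and was not called (edgeR adjusted p = 0.0909). CCL25, a chemokine of gut and thymus, was at 9.20 and 9.15 against 10.1 and 13.3 CPM (edgeR adjusted p = 0.613).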
